A study of Mus musculus with 16 samples.

Results

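The genes described here are 10 CC chemokines, Ccl2, Ccl3, Ccl4, Ccl5, Ccl7, Ccl8, Ccl12, Ccl17, Ccl20 and Ccl22, followed in mouse liver and in cells taken from inflamed liver. They were found on the array by gene symbol, and they account for 10 of the 21337 genes named there. Together they have 12 probes on 21 spots: Ccl2 is printed on 10 spots, Ccl5 and Ccl7 have 2 different probes each, and the other genes have 1 spot each. Every mouse was a female C57Bl/6 mouse that had received 300 µg of concanavalin A, a lectin from jack beans used to set off acute, T cell driven hepatitis. The first group of 3 livers was taken at 2 h from mice that also received 100000 adipose tissue derived stem cells into the tail vein at once, and it was set against 3 livers taken at 2 h after concanavalin A alone. A second group of 3 livers was taken at 5 h from mice given the stem cells 3 h after the lectin, and it was set against 3 livers taken at 5 h after the lectin alone. Hepatic inflammatory cells were measured at 5 h in 2 samples with stem cells at 3 h and in 2 samples without them. No mouse without concanavalin A was measured, so every level below is a level during the hepatitis.

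Whether the samples of inflammatory cells are from separate mice is not stated in the labels, so tests between those samples measure the spread between samples, which may be technical. The source label of both samples without stem cells names the stem cells as well, their treatment and description labels do not, and they were used as untreated. The 3 leukocyte markers (Ptprc, Coro1a and Laptm5) were higher in the cells than in the liver, and the 5 hepatocyte markers were lower, in each case past the test described below. Hepatocyte transcripts were still measured in the cells, with summed levels of 101 to 248 with stem cells and 42.3 to 142 without, against 1598 to 2203 and 1408 to 1822 in the livers of the same treatments (linear signal as a multiple of the array's 75th percentile).

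CC chemokines are small secreted proteins with a pair of adjacent cysteines, and they attract leukocytes by binding receptors coupled to G proteins. Ccl2, Ccl7 and Ccl12 act on CCR2 and draw monocytes out of the blood; Ccl8 lies in the same gene cluster, and in the mouse it is known as a ligand of CCR8. Ccl3, Ccl4 and Ccl5 draw T cells, NK cells and macrophages, and Ccl3 and Ccl5 act in part on CCR1. Ccl17 and Ccl22 share the receptor CCR4, found on many helper and regulatory T cells, and Ccl20 acts on CCR6. In inflamed liver they are made by Kupffer cells, hepatocytes, endothelial cells and the leukocytes that arrive.

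On genome build mm8, as given in the array files, 7 of the 10 genes have their probes on chromosome 11. The probes of Ccl2 (chr11:81853343-81853402), Ccl7 (chr11:81863349-81863408), Ccl12 (chr11:81919403-81919462) and Ccl8 (chr11:81932801-81932860) follow one another on the plus strand. A second group on the same chromosome holds Ccl5 (chr11:83341989-83342048, minus strand), Ccl3 (chr11:83464051-83464110, minus strand) and Ccl4 (chr11:83480745-83480804, plus strand). The probes of Ccl22 (chr8:97639938-97639997) and Ccl17 (chr8:97700999-97701058) are neighbours on chromosome 8, and that of Ccl20 (chr1:82997949-82998008) is on chromosome 1. The files give no exon or UTR for a probe.

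RefSeq promoter sequences on build GRCm38.p6, each running from 250 bases before to 50 bases after the gene's start, were held for 6 of the 10 genes (Ccl3, Ccl8, Ccl12, Ccl17, Ccl20 and Ccl22). 3 of them are shown because their genes differed between cells and liver in opposite directions, though not all in the same treatment. Ccl8 and Ccl12 are neighbours that were lower in the cells than in the liver of mice given stem cells. Ccl17 was higher in the cells than in the liver after the lectin alone. Ccl12 did not pass after the lectin alone, nor Ccl17 with stem cells. Ccl3, higher in the cells in both treatments, is not shown. The sequences shown are Ccl8 at chr11:82114935-82115234, Ccl12 at chr11:82101595-82101894 and Ccl17 at chr8:94810203-94810502, all on the plus strand, with motif matches in capitals.
Ccl8: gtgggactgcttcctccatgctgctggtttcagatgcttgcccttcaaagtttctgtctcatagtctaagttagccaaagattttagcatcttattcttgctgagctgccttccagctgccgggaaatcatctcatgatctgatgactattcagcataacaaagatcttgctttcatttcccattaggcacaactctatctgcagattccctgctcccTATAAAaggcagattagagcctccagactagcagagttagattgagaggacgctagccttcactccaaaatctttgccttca
Ccl12: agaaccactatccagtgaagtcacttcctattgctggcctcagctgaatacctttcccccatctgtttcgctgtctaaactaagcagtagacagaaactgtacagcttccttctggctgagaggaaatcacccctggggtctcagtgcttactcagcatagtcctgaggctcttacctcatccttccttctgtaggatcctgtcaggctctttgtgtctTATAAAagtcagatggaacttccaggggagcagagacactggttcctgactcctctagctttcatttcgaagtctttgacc
Ccl17: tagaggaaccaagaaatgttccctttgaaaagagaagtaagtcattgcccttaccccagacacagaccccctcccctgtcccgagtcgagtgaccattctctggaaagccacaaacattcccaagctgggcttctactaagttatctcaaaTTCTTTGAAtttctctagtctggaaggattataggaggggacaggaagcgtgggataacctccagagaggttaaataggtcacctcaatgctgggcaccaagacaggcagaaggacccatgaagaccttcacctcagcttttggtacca
In Ccl8 and Ccl12 the capitals mark TATAAA, 32 and 31 bases before the start. This motif was present on either strand in 13.6% of all 32851 promoters of the table, and in 2 of the 6 searched here. In Ccl17 they mark TTCNNNGAA, which reads the same on both strands and lies 99 bases before the start; 8.30% of all promoters hold it, and 1 of the 6 does. The NF-kB consensus of 10 bases was found in Ccl20 alone of the 6, on the minus strand, and in 6.93% of all promoters. TGANTCA (7.81% of all promoters) and the core of the interferon-stimulated response element (3.44%) had no match in the 6 windows. No matches of different motifs overlapped. In global alignments of the 15 pairs, Ccl8 and Ccl12 shared 57.4% of aligned positions, against 47.4% to 54.1% for the other pairs.

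RNA was labelled with Cy3 and hybridised to 16 Agilent arrays of one design. Well above background were 52.1% to 62.5% of spots, and 0 spots were saturated. A level is log2 of the processed signal minus log2 of the array's 75th percentile, so that 0 is the 75th percentile itself; a level has meaning across samples for one probe, and probes of different genes were not ranked against each other. The 10 spots of Ccl2 had an SD of 0.04 to 0.10 within an array, far less than the spread between mice. Within the livers at 2 h, mouse 10 of the group with stem cells and mouse 13 of the group without stood apart. The mean of the 9 genes in the liver fit, each centred over the 12 livers, was -2.47 in mouse 10 against -0.46 and -0.28 in mice 8 and 9, and -3.25 in mouse 13 against 0.65 and 0.55 in mice 11 and 12. At 5 h it ran from 0.65 to 0.87 with stem cells and from 0.78 to 1.36 without. Neutrophil markers were low in the same 2 livers: their mean level was lowest in mouse 10 (-1.26, with 0.38 the highest of its group) and in mouse 13 (-2.28, with 0.25 the highest of its group). Results that rest on these livers are given with and without them. Since the 2 livers stood apart in the tested genes themselves, a fit without them is no independent test of these genes.

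Ccl2 and Ccl7 were well above background in all 12 livers. Ccl2 had levels of 5.46, 5.62 and 1.75 in mice 8, 9 and 10, the livers at 2 h with stem cells, against 6.85, 6.34 and 0.34 in mice 11, 12 and 13 after the lectin alone. At 5 h its levels were 6.16, 6.24 and 6.47 with stem cells, against 6.45, 7.42 and 6.67 without. In the inflammatory cells they were 1.15 and 1.64 with stem cells, against 3.77 and 3.99 without. The livers of each pair overlapped, while the cell samples did not: both with stem cells lay below both without.

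Ccl7 had the same arrangement. Its levels at 2 h were 3.09, 3.61 and -0.79 after stem cells, against 4.64, 4.38 and -2.88 in mice not given them. At 5 h they were 4.63, 4.62 and 4.77 with stem cells, against 4.45, 5.57 and 5.14 without. In the cells its levels were -0.53 and -0.20 with stem cells, against 3.28 and 2.94 in those without. A second Ccl7 probe gave changes of the same direction in every comparison of 2 groups. The size differed for stem cells at 2 h (-0.78, against -0.08 by the probe used) and for 5 h against 2 h after the lectin alone (2.22, against 3.01). The difference of the stem cell effects between 5 h and 2 h had opposite signs (0.37 against -0.31). Ccl12, which has no direct human counterpart, had -0.86, -0.56 and -3.28 at 2 h with stem cells, against 0.55, 0.42 and -5.07 without, the last below background. At 5 h Ccl12 had 0.34, 0.53 and 0.82 after stem cells, against 0.27, 1.84 and 0.85 in mice not given them. The cells again separated, with -3.12 and -2.44 after stem cells, against 0.40 and 0.07 in the other samples.

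Ccl8 differed from its neighbours in its course. It had -3.22, -3.05 and -3.94 in the livers at 2 h with stem cells, against -1.59, -1.05 and -3.95 without, where the value of mouse 13 was not well above background. At 5 h it had -0.25, -0.09 and 0.22 after stem cells, against 1.07, 0.93 and 0.44 in mice not given them, and the 2 groups did not overlap. The cells with stem cells had -3.15 and -2.98, against -0.55 and -2.53 in the cells without. Mice 8 and 9 lay nearer to mice 11 and 12 for Ccl2, and nearer to mouse 10 for Ccl8.

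Ccl3 and Ccl4, made by activated macrophages and T cells, were higher in the cells than in any liver. Ccl3 had 0.89, 0.94 and -0.88 at 2 h with stem cells, against 1.70, 1.50 and -1.43 without. Its levels were 1.31, 1.46 and 1.30 at 5 h with stem cells, against 1.74, 2.07 and 1.75 without. The cells with stem cells had 4.58 and 5.16, against 5.22 and 5.74 in the cells without. Ccl4 had 3.23, 3.34 and 0.87 at 2 h with stem cells, against 4.37, 4.01 and 0.04 without. At 5 h the levels of Ccl4 were 4.18, 4.08 and 4.38 after stem cells, against 3.95, 4.62 and 4.22 in mice not given them. The cells with stem cells had 5.93 and 5.80, against 8.10 and 7.27 in the cells without.

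Ccl5, which T cells and NK cells store and release, was the steadiest of the 10 in liver. It had 1.82, 1.88 and 1.69 at 2 h with stem cells, against 2.09, 1.86 and 1.99 without. Its levels were 2.10, 2.53 and 2.35 at 5 h with stem cells, against 1.98, 2.13 and 2.03 without. Mouse 13 lay between mice 11 and 12 in this gene, and mouse 10 was the lowest of the 12 livers, close below mice 8 and 9. The cells with stem cells had 7.92 and 7.73, against 7.01 and 7.80 in the cells without, all far above the livers.

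Of the CCR4 ligands, Ccl17 was measured in every group and Ccl22 mostly lay at background. Ccl17 had -1.09, -0.85 and -3.59 at 2 h with stem cells, against -0.42, -0.08 and -3.64 without, the last not well above background. At 5 h it had 0.25, 0.49 and -0.06 after stem cells, against 0.53, 0.17 and 0.45 in mice not given them, and the cells with stem cells had 1.37 and 3.01, against 3.91 and 2.54 in the cells without. Ccl22 was not well above background in 11 of the 12 livers, the exception being mouse 11 with -1.98. The cells with stem cells had -4.52 (not well above background) and -3.11, against -4.24 and -4.37 in the cells without. Ccl20, the CCR6 ligand, was well above background in 5 of the 12 livers and in 0 of the 4 cell samples. Those 5 were mouse 3 (-3.19) of the livers at 5 h with stem cells, mice 11 and 12 (-3.11 and -3.18) at 2 h without, and mice 4 and 5 (-3.62 and -3.30) at 5 h without. Ccl22 therefore entered only the tests that include cells, and Ccl20 only those that include livers.

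**Figure D1:**
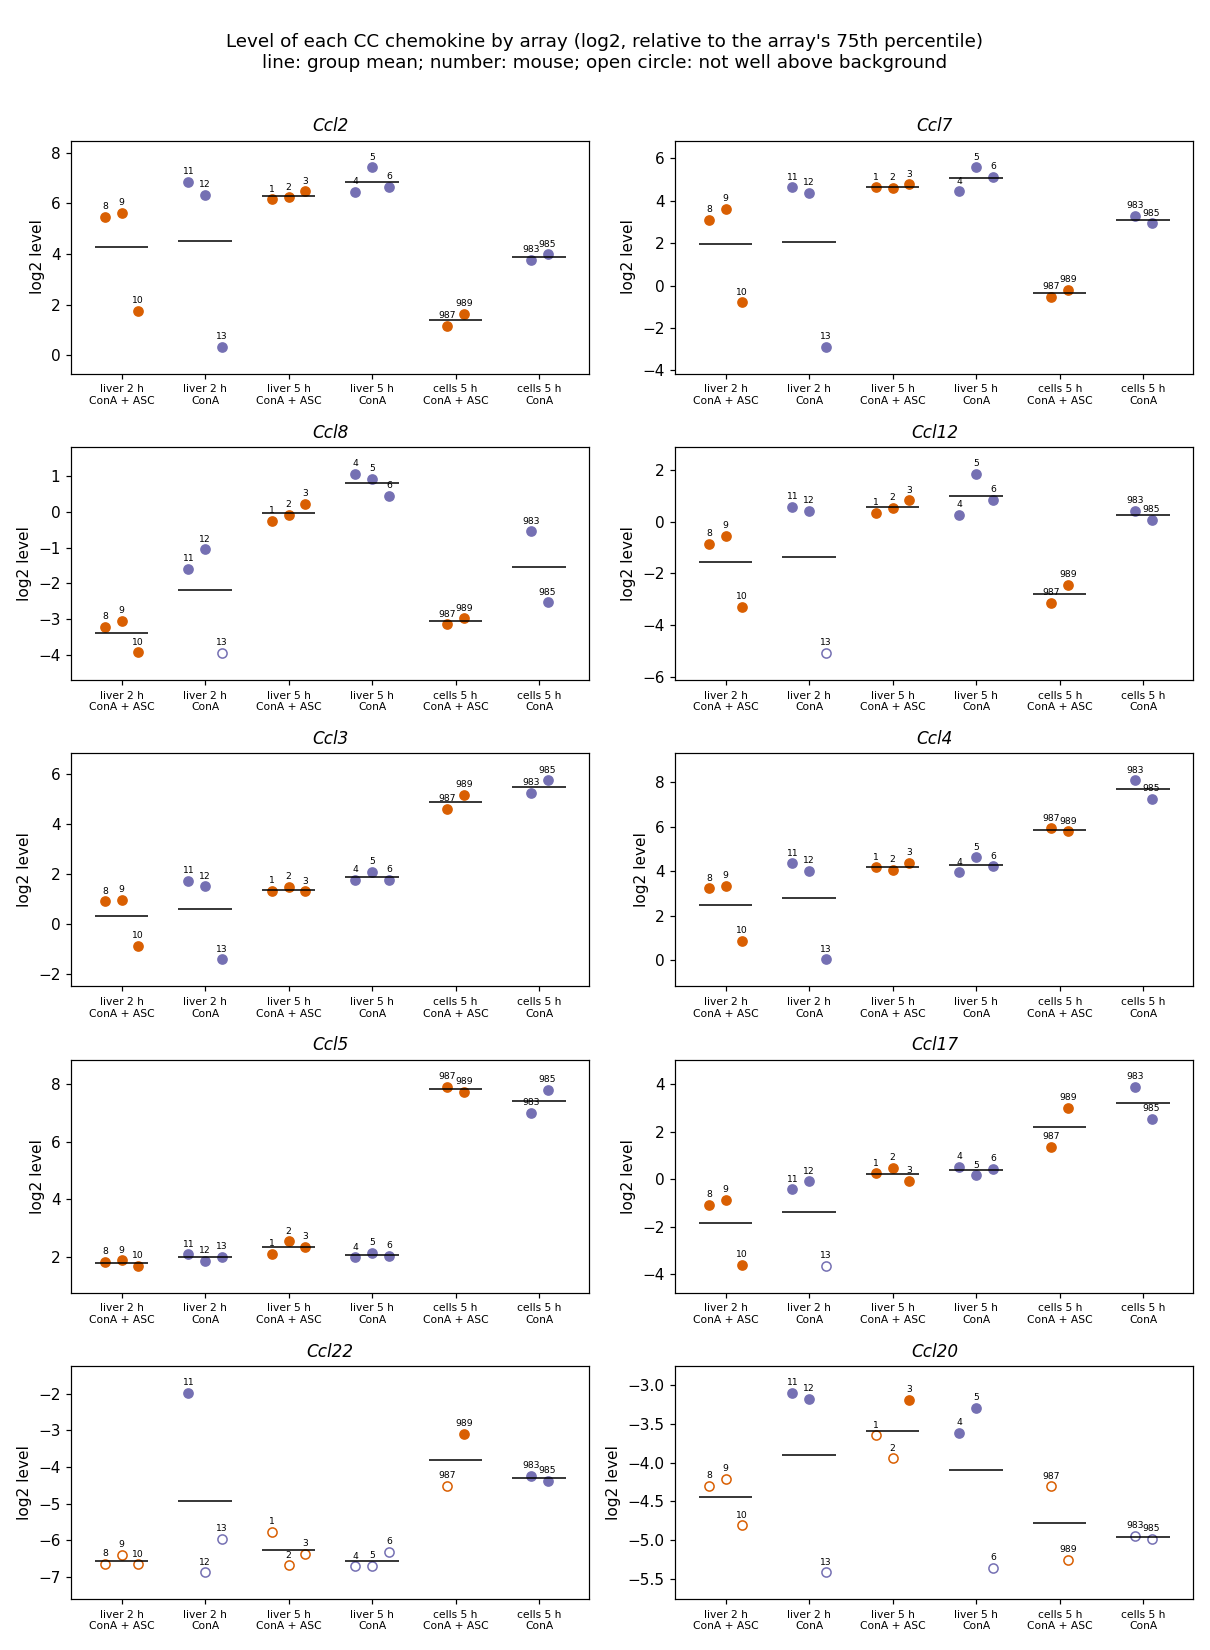
Level of each CC chemokine on each of the 16 arrays (vertical axis, log2 relative to the array's 75th percentile) in the 6 groups, with group means as lines, mouse numbers beside the points and open circles where the spot was not well above background. Mice 10 and 13 lie below their groups for Ccl2, Ccl7, Ccl12, Ccl3, Ccl4 and Ccl17; for Ccl5 mouse 13 lies within its group and mouse 10 close below its own. Both cell samples with stem cells lie below those without for Ccl2, Ccl7, Ccl12, Ccl4, Ccl3 and Ccl8.

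The order of the 6 group means differed between the genes. For Ccl2, Ccl7, Ccl8 and Ccl12 the livers at 5 h without stem cells were highest, with means of 6.85 ± 0.51, 5.05 ± 0.57, 0.81 ± 0.33 and 0.99 ± 0.79 (SD, n = 3), and the livers at 5 h with stem cells came next. The cells with stem cells were lowest for Ccl2, Ccl7 and Ccl12, and the livers at 2 h with stem cells were lowest for Ccl8. For Ccl3, Ccl4 and Ccl17 the cells without stem cells came first, then the cells with them, then the livers at 5 h, then those at 2 h. Ccl5 had its highest mean in the cells with stem cells (7.82 ± 0.14, SD, n = 2), overlapping that of the cells without (7.40 ± 0.56). Of the 50 pairs of neighbours in these orders, 38 had overlapping ranges and 12 did not. The share over all genes was not computed for such pairs, so these counts describe the members and set them apart from no other genes. All pairs of neighbours overlapped for Ccl20 and Ccl22.

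Among the 12 livers, most of the genes varied together from mouse to mouse. As a description over these livers, which share slides and include mice 10 and 13, the Pearson correlation was 0.995 between Ccl2 and Ccl7, 0.994 between Ccl2 and Ccl4, 0.993 between Ccl2 and Ccl3 and 0.987 between Ccl2 and Ccl12. Without mice 10 and 13 (n = 10) the same pairs had 0.923, 0.920, 0.944 and 0.950. Ccl8 was less close to Ccl2 (0.780, and 0.735 without those mice) and closest to Ccl17 (0.872, and 0.928 without). Over the 12 livers Ccl5 was less close to the others, with 0.419 to Ccl2 and 0.446 to Ccl7 (0.345 and 0.514 without the 2 mice). Ccl20, near background, had 0.683 to Ccl2 and 0.655 to Ccl7, and without the 2 mice it was far from the others too, with 0.337 to Ccl2, 0.176 to Ccl7 and -0.011 to Ccl17.

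Outside the family, the genes whose level over the 12 livers was most like the mean of the 9 centred chemokines were Plaur (the urokinase receptor, r = 0.992), Ch25h (cholesterol 25-hydroxylase, 0.991), Socs1 (an inhibitor of cytokine signalling, 0.990), Tlr2 (a receptor of bacterial lipoproteins, 0.989) and Acod1 (the enzyme that makes itaconate, 0.987). Without mice 10 and 13 (n = 10) their correlations were 0.958, 0.926, 0.957, 0.939 and 0.915. The comparison of n = 12 is dominated by the 2 low livers, and it is given as a description.

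Livers at 5 h were compared with livers at 2 h, once with stem cells and once after the lectin alone. The stem cells were given at once in the 2 h group and at 3 h in the 5 h group. With stem cells, time after the lectin and time of injection therefore cannot be told apart. With stem cells, 2 of the 9 members rose between the times, where 8.79% of all genes rose and 18.6% changed. Ccl8 was 10.3-fold higher at 5 h (a log2 change of 3.36 ± 0.61, SE, n = 3 each, adjusted p = 0.00562 by limma) and Ccl5 was 1.44-fold higher (0.53 ± 0.14, adjusted p = 0.0257). Neither call held under every setting. With normexp background correction Ccl8 had a change of 1.24 (adjusted p = 0.0844) and Ccl5 one of 0.75 (adjusted p = 0.0952). Ccl5 also did not pass in a fit of only these groups, or without mice 10 and 13 (0.47, adjusted p = 0.0651). When each array was left out in turn, the Ccl5 call was lost in 5 of 12 fits and the Ccl8 call in 0. All 9 members were apart and higher at 5 h, against 18.5% of all genes. The change was 2.02 ± 1.54 for Ccl2, 2.70 ± 1.78 for Ccl7, 2.13 ± 1.31 for Ccl12, 1.73 ± 1.01 for Ccl4, 2.07 ± 0.91 for Ccl17 and 1.04 ± 0.74 for Ccl3, with adjusted p from 0.139 to 0.403. For Ccl20, with 1 liver well above background at 5 h and 0 at 2 h, the bound was at least 1.59-fold (adjusted p = 0.409). Without mice 10 and 13, 4 members passed: Ccl8 (3.10, adjusted p = 0.000146), Ccl7 (1.32, 0.0167), Ccl4 (0.93, 0.0168) and Ccl17 (1.20, 0.00453), as did 2891 genes in all.

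After the lectin alone, Ccl8 was the one member that rose: it was 8.06-fold higher at 5 h, a log2 change of 3.01 ± 0.61 (SE, n = 3 each, limma, adjusted p = 0.0118). Over all genes 6.46% rose and 15.7% changed in either direction, so 1 of 9 is near the share of all genes. The other 8 members did not pass. Their changes included 2.34 ± 1.54 for Ccl2 (adjusted p = 0.325), 3.01 ± 1.78 for Ccl7, 2.35 ± 1.31 for Ccl12, 1.77 ± 0.91 for Ccl17, 1.46 ± 1.01 for Ccl4 and 1.26 ± 0.74 for Ccl3. Mouse 13 lay far below the other livers for these genes, and without mice 10 and 13 the changes were 0.25 for Ccl2, 0.55 for Ccl7, 0.50 for Ccl12 and 0.64 for Ccl17. Ccl8 then had a change of 2.13 (adjusted p = 0.00256) and was the 1 member among 1927 genes that passed, and in a fit of only these 2 groups it did not pass (3.01, adjusted p = 0.0777). Ccl5 had a change of 0.07 ± 0.14 (95% interval -0.24 to 0.38) and Ccl20 one of -0.19 ± 0.65. The 2 times did not overlap for Ccl3, Ccl8 and Ccl17, all higher at 5 h, where 15.2% of all genes were apart in that direction. The median change of the 9 members was 2.02 with stem cells and 1.77 without, against -0.08 and -0.07 over all genes. Neutrophil markers had changes above 0 in 8 of 8 cases in both treatments, with medians of 1.82 with stem cells and 1.87 without and 1 past the threshold in each. B cell markers had changes below 0 in 5 of 5 in both (medians -0.59 and -1.09, 1 past the threshold in each), and 1 of 6 endothelial markers fell with stem cells and 2 of 6 without. Macrophage and monocyte markers had medians of 0.01 and -0.49. Mouse 13 was also the highest of its group in summed B cell markers (4.76, with 1.59 and 1.90 in mice 11 and 12) and in macrophage and monocyte markers (123, with 80.2 and 72.6). The part of these markers in the chemokine changes was not tested, and in whole liver a change in the number of cells and a change in RNA per cell cannot be told apart.

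Each slide held 1 liver of each liver group, so the times could be compared within slides, though with stem cells the time of injection differed too. With stem cells, Ccl8 was higher at 5 h by 2.98, 4.16 and 2.95 on slides 1, 2 and 3, and Ccl2 by 0.70, 4.73 and 0.62, where slide 2 holds mouse 10. After the lectin alone, Ccl8 was higher by 2.11, 2.52 and 4.40 and Ccl2 by 0.11, 0.58 and 6.33, where slide 3 holds mouse 13. Ccl8 was thus higher by at least 2 units on every slide, while the large differences of Ccl2 were on the slides of mice 10 and 13.

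**Figure D2:**
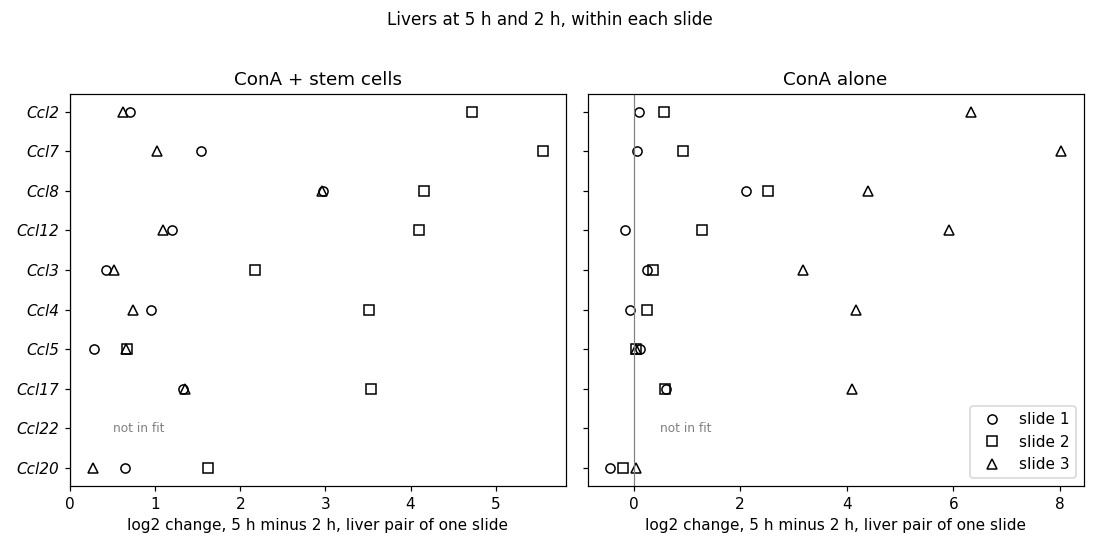
Log2 change of each chemokine from the 5 h liver minus the 2 h liver of the same slide (horizontal axis), with stem cells (left) and after concanavalin A alone (right), 1 symbol per slide. On the left the time of the stem cell injection differs as well as the time after the lectin. Ccl8 is to the right of 0 on all slides in both treatments, and the values far from the others on slide 2 (left) and slide 3 (right) belong to mice 10 and 13.

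For the livers at 2 h, mice given stem cells at once were set against mice given the lectin alone. None of the 9 members passed the test (0 of 9 by limma, and 0 of 9 at an unadjusted p under 0.05), where 4 of 14645 genes did (0.0273%; 5.64% at an unadjusted p under 0.05). All 9 changes were below 0, where 62.3% of all genes lay above 0, with a median of -0.27 against 0.08 over all genes. Ccl8 had the lowest, -1.21 ± 0.61 (adjusted p = 0.864), and Ccl2, Ccl7 and Ccl12 had -0.23 ± 1.54, -0.08 ± 1.78 and -0.20 ± 1.31. The 2 low livers sat in different groups, and the result for Ccl8 turned on them. Its change was -1.82 without mice 10 and 13 (limma, adjusted p = 0.0112) and -2.08 without mouse 13 alone (adjusted p = 0.0101). Over all genes 455 and 485 passed in these 2 fits, against 4 in the main fit. The change of Ccl8 was -2.18, -2.35 and 0.91 on slides 1, 2 and 3. With normexp background correction the change of Ccl8 was 0.04. Without mice 10 and 13 the other members also lay below 0, at -1.05 for Ccl2, -1.16 for Ccl7, -1.19 for Ccl12, -0.90 for Ccl4, -0.68 for Ccl3, -0.72 for Ccl17, -1.11 for Ccl20 and -0.12 for Ccl5, with adjusted p from 0.0674 to 0.785.

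Among the 5 h livers, the later injection of stem cells was set against the lectin alone. Mouse 5 had the highest mean of the 9 centred genes (1.36, with 0.85 and 0.78 in mice 4 and 6 of its group) and the highest Ccl12, and mouse 6 had a Ccl20 spot not well above background. Again 0 of 9 members passed, and 0 at an unadjusted p under 0.05, against 5 of 14645 genes (0.0341%; 12.4% unadjusted). Ccl8 was 1.81-fold lower with stem cells (-0.85 ± 0.61, adjusted p = 0.577) and Ccl3 1.41-fold lower (-0.50 ± 0.74, adjusted p = 0.813). For these genes alone of the 9 the 2 groups did not overlap, as in 22.2% of all genes, 9.45% with the stem cell group lower. Within slides the change of Ccl8 was -1.31, -0.72 and -0.53, and that of Ccl3 was -0.43, -0.78 and -0.29. Ccl2 had a change of -0.55 ± 1.54 and Ccl7 one of -0.38 ± 1.78, errors that include the spread of mice 10 and 13 through the shared fit. Ccl4 had a change of -0.05 ± 1.01 and Ccl17 one of -0.16 ± 0.91. Ccl12 had -0.42 ± 1.31, and 0.0056 without mouse 5; Ccl20 had 0.50 ± 0.65, and -0.14 without mouse 6. Without mice 10 and 13 Ccl8 and Ccl3 had the same changes with adjusted p of 0.120 and 0.123. Ccl5 had a change of 0.28 ± 0.14 (95% interval -0.03 to 0.59, adjusted p = 0.440), above 0 on all slides (0.12, 0.22 and 0.50). The effect of stem cells at 5 h minus that at 2 h passed for 0 of 9 members, with 1, Ccl5 (0.46 ± 0.20), at an unadjusted p under 0.05, and for 2 of 14645 genes (0.0137%; 4.72% unadjusted). The other 8 differences ran from -0.32 (Ccl2) to 1.03 (Ccl20), with Ccl7 at -0.31, Ccl3 at -0.23, Ccl12 at -0.22, Ccl4 at 0.27, Ccl17 at 0.30 and Ccl8 at 0.35.

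In the inflammatory cells at 5 h, stem cells at 3 h were compared with none, and the changes furthest below 0 among the members were those of the CCR2 ligands. Ccl7 was 11.1-fold lower (-3.48 ± 0.36, n = 2 each, limma, adjusted p = 0.0710), Ccl12 8.09-fold lower (-3.02 ± 0.40, adjusted p = 0.106), Ccl2 5.58-fold lower (-2.48 ± 0.37, adjusted p = 0.124) and Ccl4 3.54-fold lower (-1.82 ± 0.41, adjusted p = 0.158). None of the 9 members passed the adjusted threshold, and these 4 had an unadjusted p under 0.05. Over all genes 2 of 14250 passed (0.0140%), and 18.0% had an unadjusted p under 0.05. Ccl8 had -1.53 ± 0.66 (adjusted p = 0.293), Ccl17 -1.03 ± 0.69 and Ccl3 -0.61 ± 0.40. Ccl5 and Ccl22 lay above 0, at 0.42 ± 0.41 (95% interval -0.57 to 1.41) and 0.49 ± 0.53. The samples did not overlap for 6 members, all lower with stem cells (Ccl2, Ccl3, Ccl4, Ccl7, Ccl8 and Ccl12), where 52.5% of all genes did not overlap and 24.9% were lower. The median of the 9 members was -1.53, against 0.09 over all genes.

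The call for these genes depended on the background correction and on 1 sample. With normexp background correction Ccl2 (-2.58, adjusted p = 3.86e-05), Ccl4 (-2.11, 0.000690), Ccl7 (-3.13, 2.63e-06) and Ccl12 (-1.52, 0.00987) passed, as did 1007 genes in all. Without sample 985 of the untreated cells, 5 members passed, Ccl8 (-2.52, adjusted p = 0.0174) being the fifth, and 2085 genes in all. With no filter on dim probes Ccl7 passed (limma, adjusted p = 0.0363), among 24 genes in all. Marker genes of other cells also differed between the same samples. Neutrophil markers had changes above 0 in 8 of 8 cases (median 1.87, summed level 603 to 654 with stem cells and 135 to 206 without). Macrophage and monocyte markers had changes above 0 in 7 of 7 (median 1.53, 119 to 152 with stem cells and 29.6 to 66.8 without). So did hepatocyte markers in 5 of 5 (median 1.04), B cell markers in 5 of 5 (median 1.12) and dendritic cell markers in 6 of 6 (median 0.59). Of these 6 dendritic cell markers 5 did not overlap, where 52.5% of all genes did not. Leukocyte markers had 2 changes above 0 and 1 below, and the samples did not overlap for any of the 3. None of these markers passed the threshold, and their part in the chemokine changes was not tested. The 6 T cell markers had changes from -1.08 to 0.20, and the summed level of NK and cytotoxic markers was 58.3 to 69.5 with stem cells and 64.0 to 72.5 without.

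**Figure D3:**
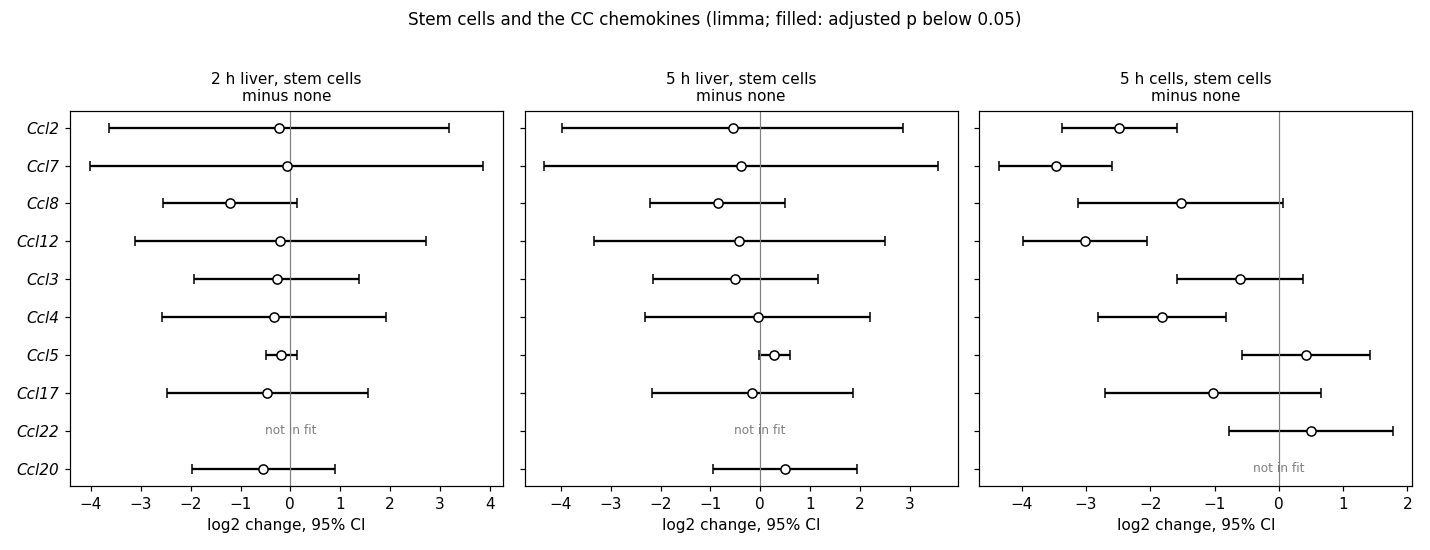
Log2 change with stem cells minus without (horizontal axis) for each chemokine in livers at 2 h, livers at 5 h and inflammatory cells at 5 h, as the limma estimate with its 95% interval. No estimate passed the adjusted threshold; the intervals of Ccl2, Ccl7, Ccl12 and Ccl4 lie below 0 in the cells, and those of Ccl2 and Ccl7 in the livers are wide.

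The inflammatory cells were compared with whole liver at 5 h to show which chemokines were concentrated in them. With stem cells, 3 of the 10 members were higher in the cells and 4 were lower, where 63.8% of all genes changed, 28.3% higher and 35.4% lower. Ccl5 was 45.1-fold higher (5.50 ± 0.22, limma adjusted p = 5.76e-10) and Ccl3 11.4-fold higher (3.51 ± 0.77, adjusted p = 0.00139), and Ccl22 was at least 1.15-fold higher (adjusted p = 0.0475), a bound set by livers below background. The Ccl22 call was lost in 13 of 16 fits that left out 1 array (adjusted p = 0.0552 and 0.272 without 1 or the other cell sample of mice given stem cells), and with normexp (0.321). Ccl7 was 32.9-fold lower in the cells (-5.04 ± 1.80, adjusted p = 0.0262), Ccl2 29.8-fold lower (-4.89 ± 1.56, adjusted p = 0.0149), Ccl12 10.2-fold lower (-3.35 ± 1.34, adjusted p = 0.0430) and Ccl8 8.15-fold lower (-3.03 ± 0.72, adjusted p = 0.00244). Ccl4 (1.65 ± 1.04) and Ccl17 (1.96 ± 1.00) did not pass. These errors include the spread of mice 10 and 13, the 2 h livers that stood apart, through the shared fit. Without these mice 8 members passed, and with only the groups compared all 10 did. Over all genes 10790 and 10569 passed in these fits, against 10398 in the main fit. Of the lower genes, the Ccl12 call was lost in 9 of the 16 fits, that of Ccl7 in 4 and that of Ccl2 in 2, in each case including those without either cell sample of mice given stem cells, and that of Ccl8 in 0. Ccl20 was at least 2.01-fold lower in the cells (adjusted p = 0.148). All 10 members had groups that did not overlap, as did 77.8% of all genes.

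In mice given the lectin alone, 4 of the 10 members were higher in the cells and 1 was lower, where 61.0% of all genes changed, 29.3% higher and 31.7% lower. Ccl5 was 41.0-fold higher (5.36 ± 0.22, limma adjusted p = 5.03e-10), Ccl3 12.3-fold (3.62 ± 0.77, adjusted p = 0.00117), Ccl4 10.7-fold (3.42 ± 1.04, adjusted p = 0.0119) and Ccl17 7.15-fold (2.84 ± 1.00, adjusted p = 0.0253). Ccl8 was 5.11-fold lower in the cells (-2.35 ± 0.72, adjusted p = 0.0121), a call lost without sample 985 (-1.36, adjusted p = 0.184). Without sample 983, Ccl4 (3.01, adjusted p = 0.0834) and Ccl17 (2.15, 0.181) did not pass, nor did Ccl17 without mouse 5 (2.73, 0.0589). Ccl2 had -2.97 ± 1.56 (adjusted p = 0.118), Ccl7 -1.94 ± 1.80 and Ccl12 -0.75 ± 1.34. Without mice 10 and 13, whose spread enters the shared fit, Ccl2 (limma, adjusted p = 4.78e-06) and Ccl7 (0.000176) passed with the same changes. In that fit 10365 genes passed in all. Ccl20 was at least 1.64-fold lower in the cells (adjusted p = 0.292) and Ccl22 at least 1.00-fold higher (0.0679).

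**Figure D4:**
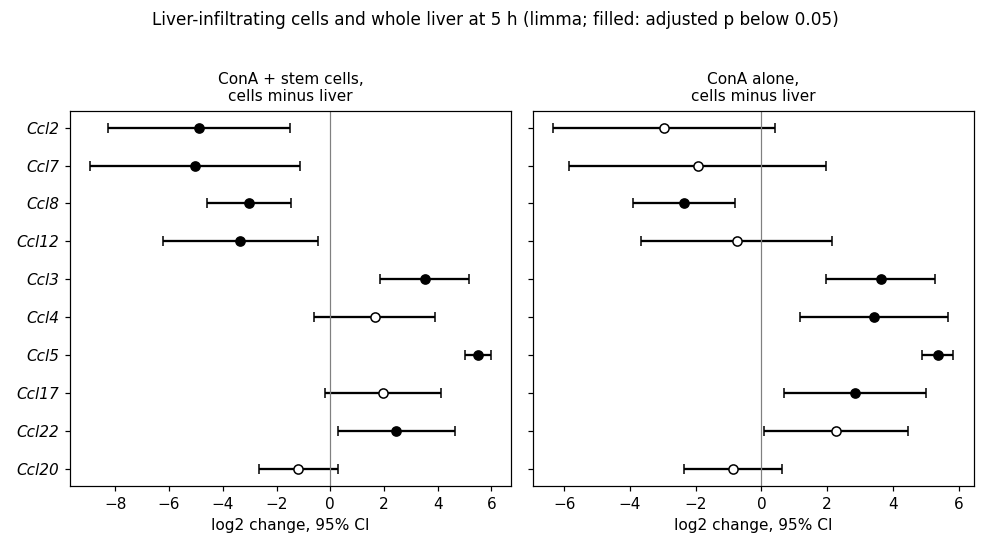
Log2 change of inflammatory cells minus whole liver at 5 h (horizontal axis) with stem cells (left) and after concanavalin A alone (right), as the limma estimate with its 95% interval, filled where the adjusted p is below 0.05. Ccl5 and Ccl3 lie to the right in both treatments and Ccl8 to the left, while Ccl2, Ccl7 and Ccl12 are filled on the left panel alone.

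The difference between the treatments was tested directly, as the effect of stem cells in the cells minus their effect in the liver at 5 h. Of 10 members 0 passed by limma, and 0 at an unadjusted p under 0.05, against 367 of 16301 genes (2.25%; 17.5% unadjusted). The differences were -3.09 ± 2.55 for Ccl7 (adjusted p = 0.571), -2.60 ± 1.89 for Ccl12, -1.93 ± 2.21 for Ccl2 and -1.77 ± 1.47 for Ccl4. Ccl17 had -0.87 ± 1.41, Ccl8 -0.67 ± 1.02, Ccl20 -0.31 ± 0.97, Ccl3 -0.11 ± 1.09, Ccl5 0.14 ± 0.32 and Ccl22 0.20 ± 1.42. The first 4 passed without mice 10 and 13, with the same differences and adjusted p of 0.00661, 0.0278, 0.0288 and 0.0296, as did 699 genes in all. In a fit of only the 4 groups at 5 h, Ccl7 passed (limma, adjusted p = 0.0282), among 143 genes in all. All cell samples lie on a slide of their own, so slide and tissue cannot be told apart in comparisons of cells with liver, while the stem cell effect within the cells is inside 1 slide.

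Of the other CC ligands on the array, 9 of 10 were in the liver fit. Between 2 h and 5 h, 3 of 9 rose with stem cells, where 8.79% of all genes rose: the eotaxin genes Ccl11 (5.49 ± 1.66, adjusted p = 0.0445) and Ccl24 (3.21 ± 0.66, 0.00959), and Ccl6 (2.15-fold, 0.0311). With the lectin alone 2 of 9 rose, where 6.46% of all genes did: Ccl24 (2.52 ± 0.66, adjusted p = 0.0301) and Ccl6 (1.13 ± 0.30, 0.0334). In the livers 0 passed for stem cells at either time. In the cells 1 of 7 did, against 0.0140% of all genes: Ccl1, a CCR8 ligand, had -1.53 and -0.78 after stem cells, against 4.71 and 4.74 in the other samples (-5.88 ± 0.40, adjusted p = 0.0324). Cells were compared with liver for the same list. With stem cells 1 of 9 was higher, Ccl6 (2.97 ± 0.32), and 7 were lower, where 28.3% of all genes were higher and 35.4% lower. The lower ones were Ccl11 (at least 105.5-fold), Ccl21a (at least 3.88-fold), Ccl19 (-5.99 ± 0.53), Ccl27a (-3.11 ± 0.25), Ccl9 (-3.02 ± 0.55), Ccl24 and Ccl25. After the lectin alone 2 were higher, Ccl1 (4.24 ± 1.45) and Ccl6 (2.15 ± 0.32), and 6 were lower, where 29.3% of all genes were higher and 31.7% lower. Those 6 were Ccl11 (at least 149.6-fold), Ccl21a (at least 5.41-fold), Ccl19 (-4.89 ± 0.53), Ccl27a (-3.09 ± 0.25), Ccl25 (-2.62 ± 0.25) and Ccl9.

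The receptor genes were described in the same way. With stem cells, 7 of 14 receptor genes were higher in the cells than in liver, where 28.3% of all genes were, and 2 were lower, where 35.4% were. Among the higher ones were Ccr7 (7.39 ± 0.83), Ccr2 (5.28 ± 0.47), Ccr3 (4.88 ± 0.35), Ccr9 (4.60 ± 0.45), Ccr6 (4.57 ± 0.47) and Ccr4 (1.66 ± 0.35), and the decoy receptor genes Ackr1 and Ackr2 were lower (-3.24 ± 0.26 and -2.22 ± 0.33). After the lectin alone 8 were higher (29.3% of all genes were), and Ackr1 and Ackr2 were lower (-3.52 ± 0.26 and -2.79 ± 0.33; 31.7% of all genes were). Ccr2 was higher by at least 47.1-fold, Ccr1 by at least 2.15-fold and Ccr4 by at least 1.89-fold, and the log2 changes were 6.51 ± 0.83 for Ccr7, 6.10 ± 0.45 for Ccr9, 5.23 ± 0.47 for Ccr6 and 3.27 ± 0.35 for Ccr3. For stem cells within the cells 0 of 12 receptor genes passed, with 3 at an unadjusted p under 0.05. Over all genes these shares were 0.014% and 18%. Ccr1 was at least 2.65-fold lower (adjusted p = 0.132). Among the others, Ccr4 and Ccr6 had -0.70 ± 0.39 and -0.29 ± 0.65. Ccr2, the receptor of Ccl2, Ccl7 and Ccl12, had 0.99 and 1.77 after stem cells, against 1.03 and 1.47 in the other samples, and overlapped (0.13 ± 0.42). In liver, 1 of 9 receptor genes rose between 2 h and 5 h with stem cells, Ackr1 (0.97 ± 0.20, limma adjusted p = 0.0106), where 8.79% of all genes rose. After the lectin alone 0 of 9 passed, where 15.7% of all genes did.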

How the data were processed

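The deposited scanner files hold linear intensity of 1 dye, which per the file headers came from Feature Extraction version 10.5.1.1, with background subtracted and spatial trends removed, and arrays not yet made comparable. The authors' deposited value table holds the same intensity (largest difference 0). From these, each log2 value was centred on its array's 75th percentile, leaving out 1639 control spots and 55 to 100 outlier spots per array, and averaging the spots of a probe. The 75th percentile ran from 212 to 426. A probe was kept when well above background on 3 of 12 liver, 2 of 4 cell or 2 of 16 arrays, and the kept probe with the highest mean stood for its gene. Of 41174 probes 6303 had no symbol. This left 14645 genes in the fit of livers, 14250 in that of cells and 16301 in that of both.

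Group means were compared with limma 3.58.1 in R 4.3.3 (2-sided, Benjamini-Hochberg over all genes of the fit, threshold 0.05). Every adjusted p and every error after a log2 change is from these fits, and fold changes are 2 to that power. The code was tested on simulated data. "At least" folds compare the brighter group's mean with the dimmer group's mean, after raising each array's signal to the lowest one well above background. The number of arrays limits the precision. Promoters were searched with Python 3.11.15 and aligned with Biopython 1.88. Every member in a fit is named in its comparisons. Of the other ligands and receptors, those past the threshold are named with values for up to 5 per direction, besides the members' receptors, except an item not reported here. Members, lists and tests were chosen with earlier results of these data known. Other settings tried were normexp with an offset of 50, quantile normalization, no filter, the mean of probes, array weights and slide as a block. Also tried were only the groups compared, all 16 arrays in 1 fit for the cells, and leaving out each array or mice 10 and 13. For comparisons with cells the last was chosen after seeing the data. In all comparisons it leaves out mice that stood apart in the members' own levels, which narrows the spread of the members.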

Additional observations from a re-analysis of the deposited data

Results flagged for a closer look

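The effect of stem cells on Ccr1, a receptor of Ccl3 and Ccl5, differed between the inflammatory cells and the liver at 5 h by the test of the difference itself: it was -3.23 on the log2 scale (limma, adjusted p = 0.0113). Ccr1 was well above background in 1 of the 4 groups, the cells without stem cells (-3.86 and -2.56), and with signals under the floor raised to it the difference was -1.70, which has no test.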

How the results depend on the processing

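Results are given as the number of members called by limma, then as log2 changes. Brackets hold the number of all genes called under the same setting. In the 2 h livers 0 members were called for stem cells (4 genes). With array weights 1 was called, Ccl8 (503 genes), and without mice 10 and 13 also 1 (455 genes). It was 0 to 1 when each array was left out in turn (2 to 485 genes). In the cells 0 were called for stem cells (2 genes), 4 with normexp (1007 genes) and 1 with no filter (24 genes). Leaving out a cell sample leaves 1 in its group, and those fits are not counted here. For 5 h against 2 h with stem cells 2 were called (2720 genes), 0 with normexp (811 genes) and 1 with no filter (1916 genes). It was 1 with quantile normalization (2866 genes) and 1 with only the groups compared (3073 genes). Without mice 10 and 13 it was 4 (2891 genes), and leaving out arrays it was 1 to 5 (1312 to 3793 genes). After the lectin alone 1 was called (2295 genes), 0 with only the groups compared (329 genes) and 1 leaving out any array (879 to 2384 genes). For cells against liver 7 were called with stem cells (3 to 9 leaving out arrays) and 5 after the lectin alone (8 with only the groups compared, 3 to 6 leaving out arrays). The cells minus liver difference called 0 members (367 genes), 1 with only the groups compared (143 genes) and 4 without mice 10 and 13 (699 genes). For comparisons with cells, leaving out these mice was a setting chosen after seeing the data. The stem cell effect in the 5 h livers and the 5 h minus 2 h difference called 0 under every setting tried. Each slide holds 1 liver of each liver group; slide as a block changed none of the liver counts of members. Mouse numbers are not shared between groups and pair no samples.

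Signs turned for members that had not been called. With normexp, stem cells at 2 h gave 0.040 for Ccl8 and 0.60 for Ccl20, and Ccl20 had 0.0025 for 5 h against 2 h after the lectin alone, -0.36 with stem cells and 0.33 for cells against liver with stem cells. For the 5 h minus 2 h difference normexp gave 0.11 for Ccl2, 0.28 for Ccl7, -0.76 for Ccl8, -0.050 for Ccl17 and -0.37 for Ccl20. For the cells minus liver difference it gave -0.10 for Ccl5, 0.56 for Ccl8 and 0.74 for Ccl20. Quantile normalization gave 0.062 for Ccl7 with stem cells at 2 h and 0.13 for Ccl3 in the cells minus liver difference. In the 5 h minus 2 h difference, array weights gave 0.35 for Ccl2, 0.10 for Ccl3, 0.40 for Ccl7 and 0.58 for Ccl12, and leaving out mice 10 and 13 gave 0.50, 0.18, 0.78 and 0.77; the mean of probes gave 0.032 for Ccl7. The cause was not tested.

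Leaving out single arrays also turned signs. With stem cells at 2 h the ranges were -2.32 to 1.03 (Ccl2), -1.28 to 0.33 (Ccl3), -1.71 to 0.48 (Ccl4), -2.54 to 1.30 (Ccl7), -2.05 to 0.76 (Ccl12) and -1.59 to 0.41 (Ccl17). At 5 h they were -0.21 to 0.13 (Ccl4), -0.78 to 0.0056 (Ccl12) and -0.14 to 0.89 (Ccl20) in liver, and -0.21 to 1.20 (Ccl22) in cells. Ccl20 had -0.95 to 0.44 for 5 h against 2 h after the lectin alone. The 5 h minus 2 h difference ran from -1.59 to 1.76 (Ccl2), -0.83 to 0.78 (Ccl3), -0.53 to 1.66 (Ccl4), -1.69 to 2.16 (Ccl7), -0.22 to 1.23 (Ccl8), -1.18 to 1.63 (Ccl12) and -0.57 to 1.43 (Ccl17). The cells minus liver difference ran from -0.40 to 0.18 (Ccl3), -0.26 to 0.54 (Ccl5), -1.66 to 0.32 (Ccl8), -0.79 to 0.32 (Ccl20) and -0.51 to 0.90 (Ccl22). No sign turned for Ccl2, Ccl4, Ccl7 or Ccl12 with stem cells in the cells, or for Ccl8 between 2 h and 5 h. Where a group keeps 1 cell sample, it is taken to vary like the other group. Dim signal sets a further limit, as Ccl20 and Ccl22 were not well above background on most arrays.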
